A study of Homo sapiens with 24 samples.

Results

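The 40 genes described here encode the enzymes and regulators with which a cell licenses its replication origins, builds replication forks, makes deoxynucleotides and decides to enter S phase. They were picked by gene symbol, and each symbol matched 1 of the 60504 rows of the expression table. Messenger RNA was sequenced from human cancer cells 48 hours after transfection with siRNA against GCDH (siGCDH) or with control siRNA (siControl). GCDH is the gene of glutaryl-CoA dehydrogenase, which acts in mitochondria in the breakdown of lysine and tryptophan. The 24 libraries form 8 groups of 3: siControl and siGCDH in A375 batch 1, A375 batch 2, SK-Hep1 and SKBR3. The question was how loss of GCDH message changes these genes in each line.

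A375 is a melanoma line, SK-Hep1 is labelled liver cancer and SKBR3 breast cancer. Each group is 3 numbered replicates of 1 line, all groups were transfected, and no untransfected cells are among the groups used. The sample titles do not say whether replicates are wells of 1 experiment or separate transfections. The p-values therefore measure the spread between replicates of a line, of whichever kind. A375 batch 1 was sequenced from 3′ tags and the other groups from full-length poly(A) libraries, so batch and kit cannot be told apart and levels are not compared across them. GCDH itself measured 19.3 to 22.7 TPM (transcript abundance per length, scaled to the same total in every library) in A375 batch 2 siControl and 3.41 to 3.91 TPM in siGCDH. It fell from between 8.97 and 9.79 to between 2.25 and 3.25 TPM in SK-Hep1, and from between 22.03 and 22.77 to between 4.61 and 7.60 TPM in SKBR3. In batch 1 the GCDH values were 6.69, 4.76 and 1.77 TPM in siControl and 1.5, 0.94 and 0.31 TPM in siGCDH, and the adjusted p was 0.12. Melanocyte genes were partly present in A375, with SOX10 at 457 ± 14.5 TPM (SD, n = 3) in batch 2 siControl but TYR at 0. In SK-Hep1 siControl the hepatocyte genes ALB, APOA1, APOB, TTR and HNF4A were all at 0, while SERPINA1 measured 9.59 ± 1.24 TPM and AFP 0.69 ± 0.26 TPM. The SKBR3 line is known for amplification of ERBB2, yet the siControl libraries labelled SKBR3 held 25.5 ± 2.2 TPM of ERBB2, against 32.7 ± 1.7 TPM in A375 batch 2, and KRT19 at 0.23 TPM. In SK-Hep1 siControl ERBB2 was at 46.4 ± 5.1 TPM, KRT19 at 1262 ± 15.7, KRT8 at 2317 ± 59.1 and GATA3 at 55.3 ± 2.5 TPM. GRB7 and EPCAM were at 2.88 ± 0.65 and 8.72 ± 1.84 TPM there. They were at 0.51 and 1.9 TPM in SKBR3 siControl, and at 0.35 and 0.31 TPM in A375 batch 2 siControl. KRT8 and GATA3 were at 9.07 and 7.77 TPM in SKBR3 siControl. The identity of the lines was not tested. SKBR3 below means the libraries with that label.

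Before S phase, the origin recognition complex (ORC), CDC6 and CDT1 load the MCM2-7 ring onto DNA, and geminin (GMNN) blocks a second loading. CDC45, the GINS complex and MCM10 turn the loaded ring into the active helicase. Primase and polymerase alpha start each strand, replication factor C (RFC) loads the PCNA clamp, polymerases epsilon and delta extend the strands, and FEN1 trims lagging-strand flaps. D-type and E-type cyclins with their kinases release E2F factors from the retinoblastoma protein, and E2F factors switch on much of this gene set late in G1.

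The letters of E2F sites were looked for in the promoters. RefSeq promoter windows (GRCh38.p14, 250 bases before to 50 after the gene start) were found for 34 of the 40 genes. Both strands were searched for the E2F-type octamers TTTGGCGC and TTTCGCGC, and either was found in 11 of 34 windows (32.4%), against 322 of 27305 windows over all genes (1.18%). The 11 genes were MCM2, MCM3, MCM6, MCM7, CDC6, GINS1, POLA1, POLE, POLE2, E2F1 and E2F2. Stretches around the matches are shown because they place helicase, polymerase and E2F genes beside each other, with the octamer, or overlapping octamers of both strands, in capitals:
MCM2, chr3:127598404-127598433, plus strand: tgaaccactTTTCGCGCGAAAcctggttgt
MCM3, chr6:52284728-52284757, minus strand: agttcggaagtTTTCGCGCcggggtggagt
MCM6, chr2:135876568-135876611, minus strand: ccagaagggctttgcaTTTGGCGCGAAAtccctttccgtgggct
MCM6, chr2:135876506-135876549, minus strand: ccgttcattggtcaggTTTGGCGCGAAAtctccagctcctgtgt
MCM7, chr7:100101388-100101417, minus strand: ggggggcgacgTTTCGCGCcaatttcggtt
GINS1, chr20:25407667-25407696, plus strand: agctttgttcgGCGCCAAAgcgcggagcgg
POLA1, chrX:24693765-24693804, plus strand: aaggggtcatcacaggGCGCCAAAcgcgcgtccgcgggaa
POLE, chr12:132687342-132687371, minus strand: tgggtgggagcGCGCCAAAtttctcccctg
POLE2, chr14:49688201-49688230, minus strand: ctgcggcggtgGCGCCAAAtcgcaaatatg
E2F1, chr20:33686387-33686416, minus strand: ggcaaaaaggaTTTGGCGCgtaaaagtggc
MCM2 and MCM6 hold runs in which octamers of both strands overlap, and MCM6 has 2 of them. The pentamer CCAAT was found on either strand in 20 of 34 windows (58.8%), against 35.7% of all windows. A match is a run of letters and was not tested for binding. A gene is called where the adjusted p is under 0.05 (limma on log2(TPM + 1), two-sided, Benjamini-Hochberg over all genes of the fit). After siGCDH, 5 of the 11 genes with a match were called lower and 0 higher in A375 batch 2 by limma (1 higher at an unadjusted p under 0.05), where 15.7% of all genes tested were called lower and 17.9% higher. In SK-Hep1, 4 were lower and 2 higher (18.2% and 37.3% of all genes), and in SKBR3 1 was lower and 3 higher (14.7% and 47.3%). None was called in A375 batch 1, where E2F2 was under the filter and 0 were higher and 2 lower at an unadjusted p under 0.05. The counts lower and higher became 5 and 0, 5 and 2, and 8 and 2 in the 3 full-length lines when libraries were first brought to the same median level (median scaling). With that scaling, 2452 of 15185 genes tested were called lower and 2680 higher in A375 batch 2. In SK-Hep1 it was 3341 and 4200 of 14557, and in SKBR3 4171 and 5043 of 16494. Of the 23 genes without a match, 6 were called lower and 4 higher in A375 batch 2 (6 and 5 after median scaling), 5 and 9 in SK-Hep1 (6 and 4), and 9 and 5 in SKBR3 (16 and 2).

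In control cells the 3 full-length lines expressed this gene set at different levels. The order was SKBR3 above A375 batch 2 above SK-Hep1 in 30 of 40 genes, and in 26 of them each step passed the test. The share of all genes with this order was not counted. Against SK-Hep1, A375 batch 2 was called higher for 32 genes and lower for 4, where 45.7% and 29.3% of all genes tested were called higher and lower. Against SKBR3, A375 batch 2 was higher for 2 and lower for 34 (34.5% and 40.5% of all genes). SK-Hep1 against SKBR3 was higher for 2 and lower for 38 (28.9% and 50.5%). The median log2 difference over the 40 genes was -1.61 in that last comparison and -0.34 over all genes tested. These comparisons share their control libraries.

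**Figure D1:**
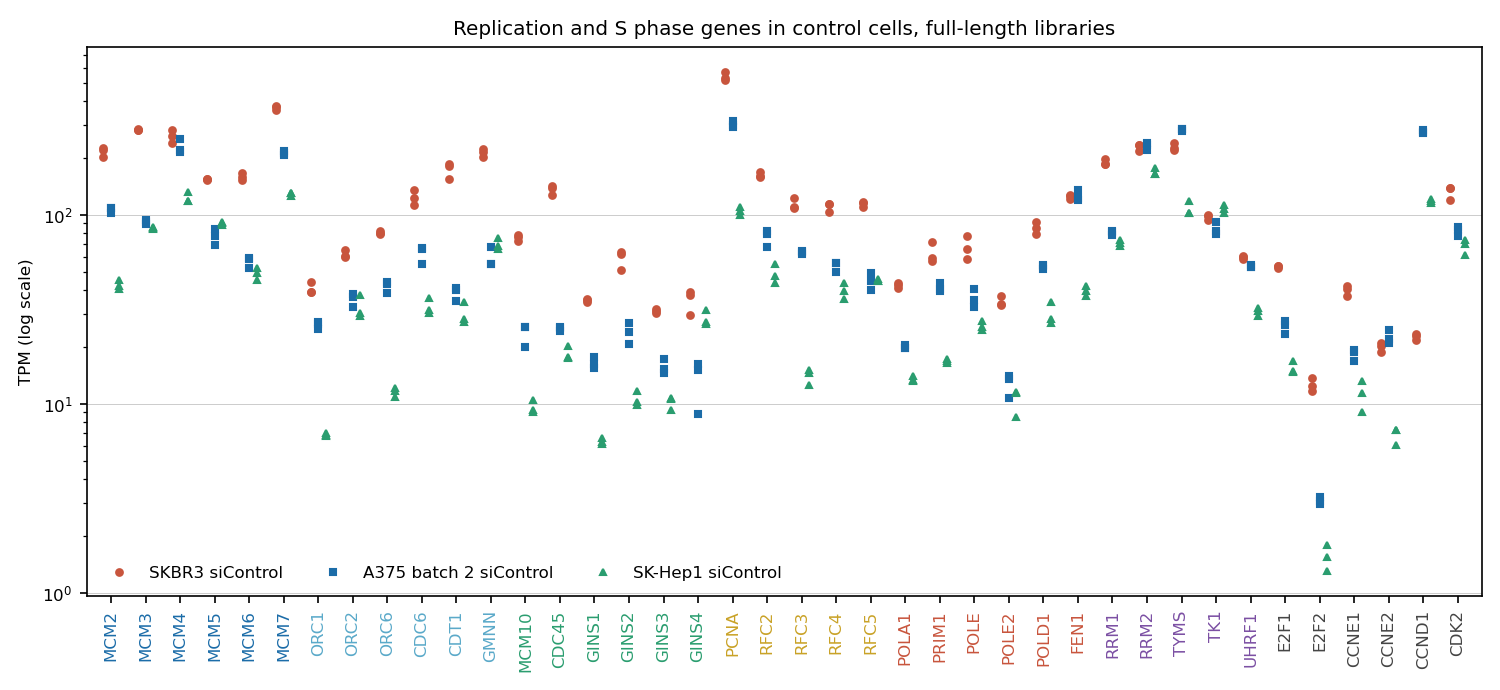
TPM of each of the 40 genes in the siControl libraries of the 3 full-length lines (log axis, 3 points per line, gene names coloured by role as in the plot of fold changes). SKBR3 (circles) lies above A375 batch 2 (squares) and SK-Hep1 (triangles) for most genes, while CCND1 is highest in A375 batch 2 and lowest in SKBR3.

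The mean ratio of SKBR3 to SK-Hep1 levels had a median of 3.13 over the 40 genes and reached 8.13 for E2F2, an activating E2F factor. E2F2 itself was scarce, at 12.5, 11.6 and 13.7 TPM in SKBR3, 2.95, 3.04 and 3.2 TPM in A375 batch 2 and 1.8, 1.31 and 1.54 TPM in SK-Hep1. CDC45 measured 139, 142 and 128 TPM in SKBR3, 24.1, 25.5 and 25.1 TPM in A375 batch 2 and 17.5, 17.6 and 20.2 TPM in SK-Hep1. No library of one line overlapped another for CDC45. PCNA was the most abundant member in SKBR3, at 528, 569 and 519 TPM, against 312, 298 and 290.0 TPM in A375 batch 2 and 109.8, 99.8 and 104 TPM in SK-Hep1. CCND1, the cyclin that starts the G1 cascade, broke the order, with 273, 279 and 269 TPM in A375 batch 2, 119, 121 and 115 TPM in SK-Hep1 and 23.4, 22.8 and 21.7 TPM in SKBR3. Its log2 level was 3.54 higher in A375 batch 2 than in SKBR3 and 2.34 higher in SK-Hep1 than in SKBR3. TYMS was higher in A375 batch 2 (277, 284 and 283 TPM) than in SKBR3 (239, 219.7 and 224 TPM). TK1 was called higher in SK-Hep1 (107, 113 and 102 TPM) than in A375 batch 2 and, by 0.15, than in SKBR3. That TK1 call against SKBR3 was lost without replicate 1 or 2 of either line and without the trend. MCM5, GMNN, GINS4 and TK1 were the 4 genes called higher in SK-Hep1 than in A375 batch 2. The MCM5 call was lost without A375 batch 2 replicate 2 or SK-Hep1 replicate 1 or 3, and the GMNN call without any 1 library but A375 batch 2 replicate 1. MCM3, ORC2, RFC5 and POLE2 did not pass the test between A375 batch 2 and SK-Hep1. MCM4, FEN1, RRM2 and CCNE2 did not pass it between A375 batch 2 and SKBR3.

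Silencing GCDH moved the gene set in both directions in each full-length line. In A375 batch 2, 6 genes were called higher, 13 lower and 21 neither (17.9% and 15.7% of all genes tested were higher and lower). In SK-Hep1, 12 were higher, 12 lower and 16 neither (37.3% and 18.2%). In SKBR3, 10 were higher, 11 lower and 19 neither (47.3% and 14.7%). In A375 batch 1, 1 was higher, 3 lower and 35 neither (1.18% and 6.73%), and E2F2 lay under the filter of 1 TPM on the mean. All genes tested had a median log2 change of 0.024 in A375 batch 2, 0.18 in SK-Hep1, 0.29 in SKBR3 and -0.20 in A375 batch 1. Here and below, log2 changes are siGCDH minus siControl and are given ± SE, on the log2(TPM + 1) scale. The 40 genes had medians of -0.080, 0.072, -0.0031 and -0.19. After median scaling the counts became 7 higher and 13 lower in A375 batch 2, 7 and 15 in SK-Hep1, 4 and 26 in SKBR3, and 1 and 1 in batch 1. Over all genes tested, median scaling gave 2680 higher and 2452 lower of 15185 in A375 batch 2. It gave 4200 and 3341 of 14557 in SK-Hep1, 5043 and 4171 of 16494 in SKBR3, and 207 and 294 of 12868 in batch 1. Quantile normalization kept both SKBR3 counts of the 40 genes within 1.5 times of 10 and 11. Of the 40 genes, 11 share exon bases with another protein-coding gene model of GENCODE 29, 9 of them on the opposite strand. They are MCM2, MCM7, GINS2, RFC4, POLD1, PRIM1, FEN1, RRM2, TYMS, CCNE2 and CCND1. POLD1 shares 426 bases with AC020909.1 on the same strand, and CCND1 497 with LTO1 on the opposite strand. TPM is a share of each library, and fewer cells in S phase cannot be told apart from less RNA of these genes per cell.

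**Figure D2:**
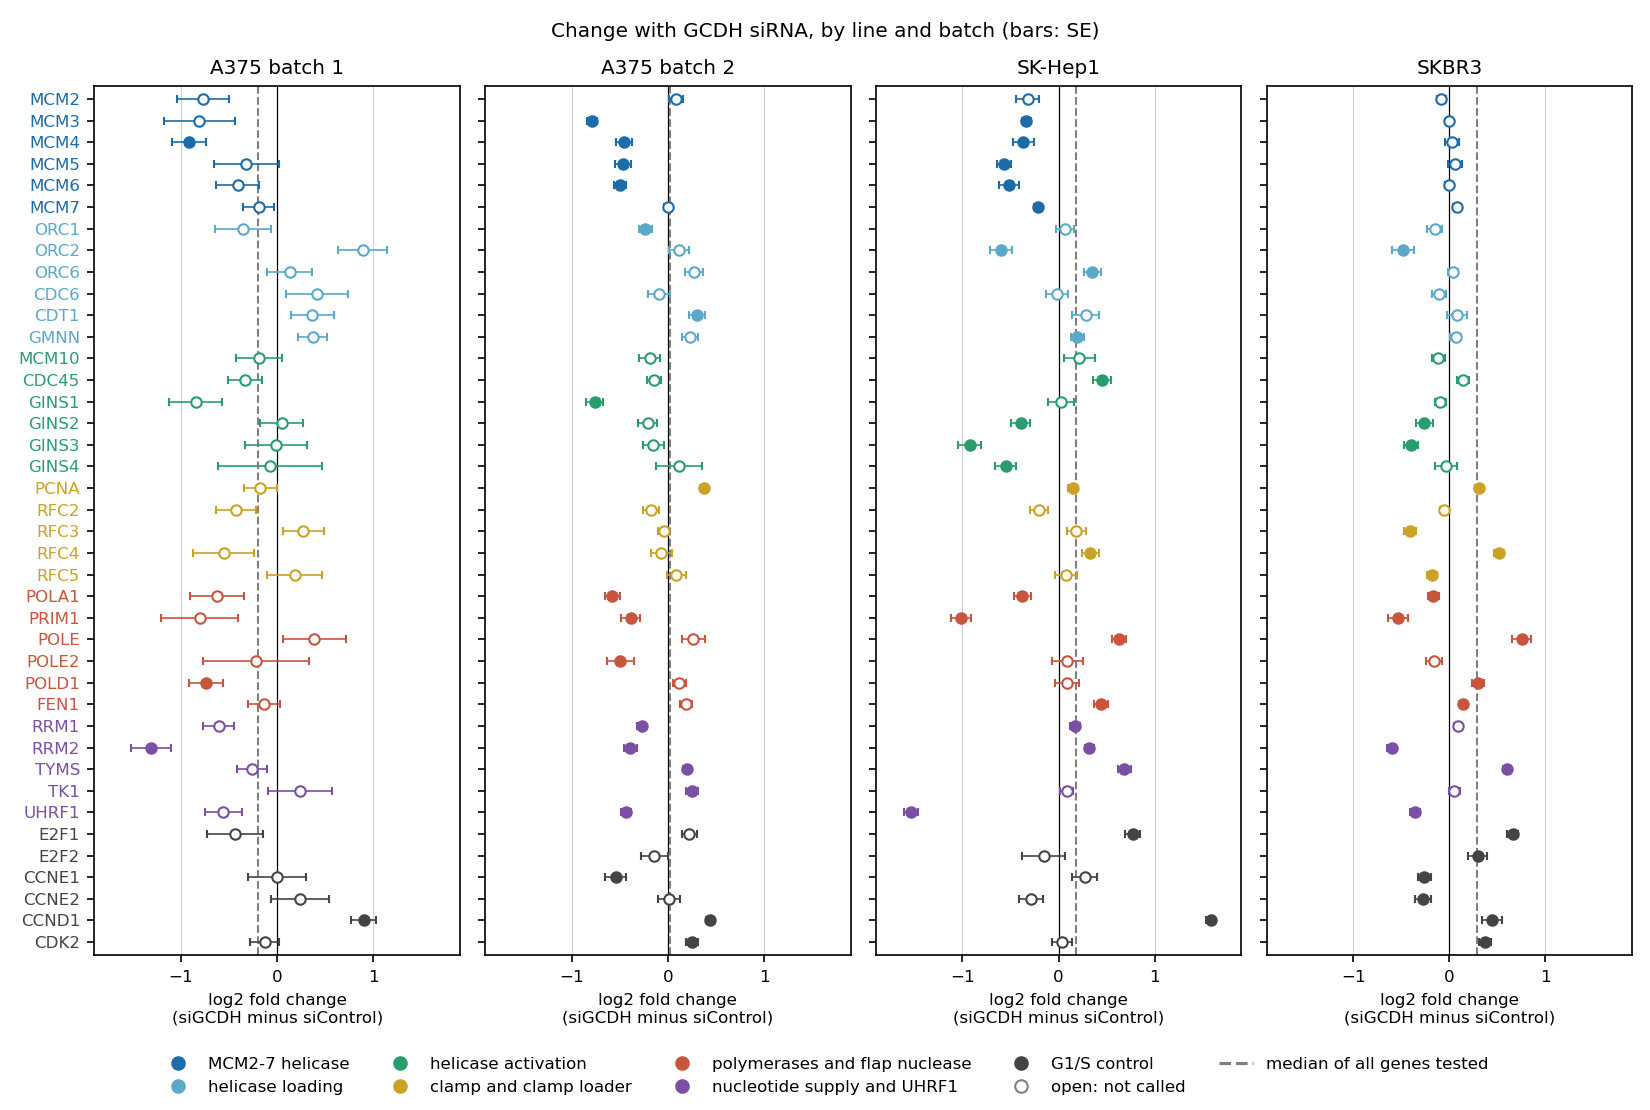
Log2 fold change (siGCDH minus siControl, bars show the SE) of the 40 genes in the 4 comparisons, by role. Filled points passed the test, and the dashed line is the median of all genes tested (0.29 in SKBR3), below which 31 of 40 genes lie in SKBR3.

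PCNA, TYMS and CCND1 were called higher in all 3 full-length lines (5.97% of the 12258 genes tested in all 3 were). POLA1, PRIM1 and UHRF1 were called lower in all 3 (2.59%). After median scaling TYMS alone was higher in all 3, and MCM3, MCM4, MCM6, POLA1, PRIM1 and UHRF1 were lower in all 3. The shares of all genes above are from the fits without scaling, and were not counted after it. MCM2, MCM10, CDC6 and RFC2 were called in none of the 3 lines. RRM1 and RRM2 were called in opposite directions in different lines.

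The helicase ring genes MCM2 to MCM7 fell in A375 batch 2 and SK-Hep1 for 4 and 5 of 6 members, and in SKBR3 none of the 6 was called by limma, where 15.7%, 18.2% and 14.7% of all genes tested were called lower. After median scaling the counts lower were 4, 6 and 5 of 6. Of all genes tested, 2452 of 15185, 3341 of 14557 and 4171 of 16494 were then called lower. At an unadjusted p under 0.05, 0 of the 6 were higher in any of the 3 lines, and in SKBR3 0 were lower. Their summed level went from 773 ± 16.6 to 640 ± 29.7 TPM (SD, n = 3) in A375 batch 2 and from 519 ± 12.1 to 403 ± 28.4 TPM in SK-Hep1. In SKBR3 it was 1440 ± 9.2 TPM in siControl and 1460 ± 61.0 TPM in siGCDH. In A375 batch 1 it was 181 ± 26.6 and 125 ± 7.2 TPM, with no overlap. Ribosomal RNA repeat rows on chromosome 21 held 15.9% to 19.5% of TPM in batch 1 siControl and 31.2% to 34.4% in batch 1 siGCDH. With those rows removed and TPM rescaled, a check chosen after seeing the data, the batch 1 sums were 218 ± 27.5 and 187 ± 14.3 TPM and the groups overlapped.

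**Figure D3:**
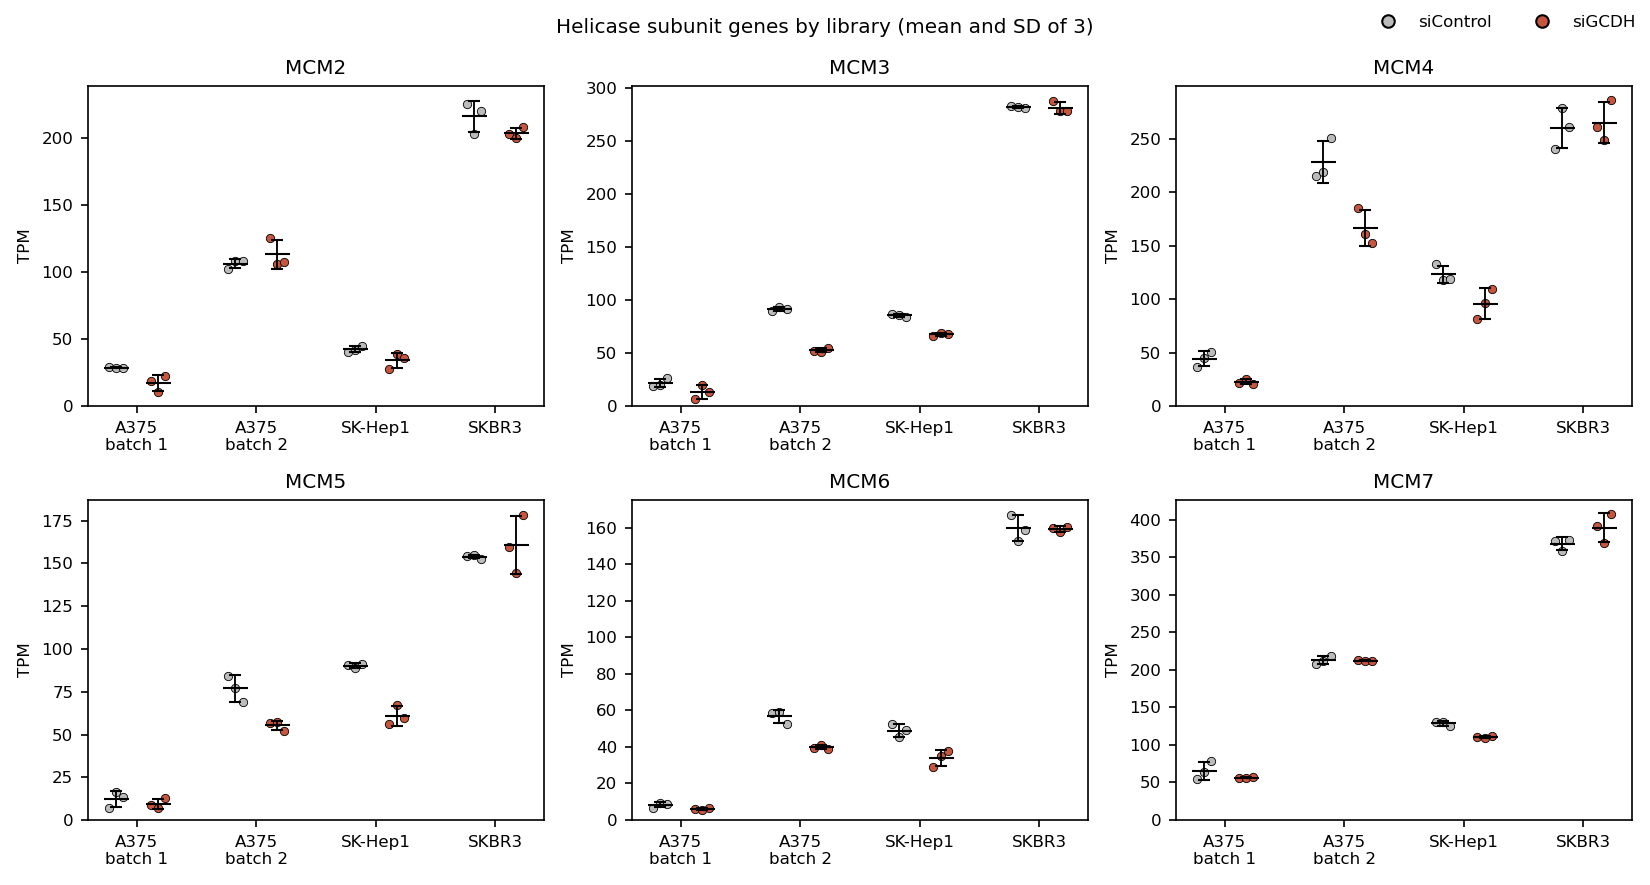
TPM of the 6 helicase subunit genes in all 24 libraries (points), with the mean and SD of each group of 3. MCM3 shows the widest gap between grey siControl and red siGCDH points in A375 batch 2, while SKBR3 points overlap for most subunits.

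MCM3 had the largest fall of the 6 in A375 batch 2. It measured 89.2, 93.6 and 91.7 TPM in siControl and 52.2, 50.8 and 54.4 TPM in siGCDH, a log2 change of -0.79 ± 0.050 (adjusted p = 4.9e-05). Every siGCDH library lay far below every control library. In SK-Hep1, MCM3 was 86.5, 85.4 and 84.1 TPM and 65.7, 69.1 and 67.5 TPM, a smaller fall of 0.34 (adjusted p = 0.00073). In SKBR3 the values overlapped, at 283, 282 and 281 TPM and 288, 278 and 278 TPM. The subunits of the ring did not move equally. MCM7, the most abundant of them in SKBR3 and SK-Hep1, stood at 208, 212 and 218 TPM in A375 batch 2 siControl and 214, 212 and 211 TPM in siGCDH, and did not pass the test (-0.0033 ± 0.036, adjusted p = 0.96). The ratio of MCM3 to MCM7 in A375 batch 2 was 0.430 ± 0.011 in siControl and 0.247 ± 0.0094 in siGCDH. In SK-Hep1 it was 0.663 ± 0.0083 and 0.608 ± 0.020, and in SKBR3 0.766 ± 0.019 and 0.723 ± 0.037.

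MCM4 fell in A375 batch 2 from 216, 219 and 251 TPM to 186, 161 and 153 TPM (-0.45 ± 0.086, adjusted p = 0.0059) and in SK-Hep1 by 0.37, the latter lost without siControl replicate 1. It was the one subunit called in A375 batch 1, where 36.7, 45.2 and 50.5 TPM became 21.9, 25.7 and 20.8 TPM (-0.92 ± 0.18, adjusted p = 0.025). Without siControl replicate 2 or 3, or without siGCDH replicate 1 or 3, that batch 1 call was lost, as it was after median or quantile scaling, without the trend and with the chromosome 21 rows removed. MCM5 measured 90.8, 88.7 and 91.4 TPM in SK-Hep1 siControl and 55.9, 67.4 and 59.5 TPM in siGCDH (-0.56 ± 0.073, adjusted p = 0.00041), and it fell by 0.47 in A375 batch 2. MCM6 fell by 0.50 in A375 batch 2, from 58.4, 59.4 and 52.4 TPM to 39.5, 41.2 and 38.8 TPM, and by 0.52 in SK-Hep1. MCM7 fell in SK-Hep1 alone, from 130.1, 131 and 126 TPM to 111, 109.5 and 112 TPM (-0.21 ± 0.044, adjusted p = 0.0041). MCM2 passed the test nowhere. Its values in A375 batch 2 overlapped, at 103, 108 and 108 TPM and 126, 106 and 108 TPM, whereas in SK-Hep1 they did not, at 40.3, 41.9 and 45.1 TPM and 27.8, 38.6 and 36.01 TPM (-0.32 ± 0.12, adjusted p = 0.052). The 6 SKBR3 changes lay between -0.084 and 0.080, all under the all-gene median of 0.29, and MCM2, MCM3, MCM4, MCM6 and MCM7 were called lower there after median scaling. Quantile normalization instead put MCM3 at 0.098, called higher (adjusted p = 0.039).

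Among the 6 loading genes, 1 was called higher and 1 lower in A375 batch 2, and 2 and 1 in SK-Hep1. Of all genes tested, 17.9% were higher and 15.7% lower in A375 batch 2, and 37.3% and 18.2% in SK-Hep1. No member passed the test in all 3 lines. In SKBR3 1 of the 6 was called lower (14.7% of all genes tested). After median scaling 5 were, namely ORC1, ORC2, ORC6, CDC6 and GMNN, where 4171 of all 16494 genes were lower. ORC2, a core subunit of the origin recognition complex, fell in SK-Hep1 from 30.2, 37.4 and 29 TPM to 19, 20.1 and 23.6 TPM (-0.60 ± 0.12, adjusted p = 0.0035). It fell in SKBR3 from 60.5, 64.9 and 59.5 TPM to 36.9, 43.8 and 51.7 TPM (-0.49 ± 0.11, adjusted p = 0.0077). Its groups overlapped in A375 batch 2, at 36.5, 32.5 and 38.3 TPM and 39.5, 43.8 and 33.9 TPM. In batch 1 ORC2 measured 6.4, 7.45 and 7.2 TPM and 13.97, 18.6 and 10.2 TPM, with no overlap but an adjusted p of 0.076. ORC1, the largest ORC subunit, fell slightly in A375 batch 2, from 24.8, 26.3 and 26.97 TPM to 22.2, 21.03 and 22.7 TPM (-0.23 ± 0.069, adjusted p = 0.036). Leaving out any 1 of the 6 libraries ended that ORC1 call. ORC6 was higher in SK-Hep1, at 14.5, 14.2 and 16.4 TPM against 11.7, 12.2 and 10.9 TPM (0.35 ± 0.092, adjusted p = 0.013), and lost the call after median scaling.

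The loading factor CDT1 was called higher in A375 batch 2, with 52.1, 44.4 and 47.1 TPM in siGCDH against 39.9, 34.9 and 41.1 TPM in siControl (0.30 ± 0.087, adjusted p = 0.032). The call was lost without siControl replicate 1 or 2, or without siGCDH replicate 1 or 3. GMNN, which encodes the inhibitor of CDT1, was higher in SK-Hep1 by 0.19 (adjusted p = 0.034), a call that median scaling ended, as did leaving out replicate 2 or 3 of either group. GMNN in A375 batch 2 measured 67.2, 54.7 and 55.1 TPM and 69.3, 68.8 and 69.04 TPM without overlap, with an adjusted p of 0.069. CDC6, the ATPase that completes loading with ORC, had log2 changes of -0.091, -0.019 and -0.10 in A375 batch 2, SK-Hep1 and SKBR3 and passed in none.

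Of the 6 helicase activation genes, 1 was called in A375 batch 2 (lower), 4 in SK-Hep1 (3 lower, 1 higher) and 2 in SKBR3 (lower). Of all genes tested, 15.7% were called lower and 17.9% higher in A375 batch 2, 18.2% and 37.3% in SK-Hep1, and 14.7% and 47.3% in SKBR3. The 4 GINS subunits did not move alike. GINS1 fell in A375 batch 2 from 17.7, 16.2 and 15.5 TPM to 9.83, 9.01 and 8.99 TPM (-0.76 ± 0.089, adjusted p = 0.00074). In SK-Hep1 GINS1 overlapped between the groups, at 6.31, 6.09 and 6.55 TPM and 5.25, 6.72 and 7.47 TPM, and in SKBR3 it changed by -0.093. GINS3 fell in SK-Hep1 from 9.25, 10.8 and 10.6 TPM to 5.39, 4.19 and 5.15 TPM (-0.93 ± 0.12, adjusted p = 0.00046) and in SKBR3 from 31.02, 31.6 and 30.1 TPM to 21.5, 23.4 and 24.9 TPM (-0.40 ± 0.071, adjusted p = 0.0022). Its change in A375 batch 2 was -0.15 ± 0.11 (adjusted p = 0.31). GINS2 fell by 0.39 in SK-Hep1 and by 0.26 in SKBR3, the latter lost without siControl replicate 1 or 3 and without siGCDH replicate 1 or 3. GINS4 fell in SK-Hep1 from 31.4, 26.4 and 27 TPM to 16.6, 19.2 and 21.3 TPM (-0.55 ± 0.11, adjusted p = 0.0035).

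CDC45, the third part of the active helicase beside MCM2-7 and GINS, was higher in SK-Hep1, at 26.6, 26.98 and 23.1 TPM against 17.5, 17.6 and 20.2 TPM (0.45 ± 0.092, adjusted p = 0.0041). It changed by -0.14 in A375 batch 2 and 0.14 in SKBR3, neither called. In SK-Hep1, CDC45 was called higher while GINS2, GINS3, GINS4 and 5 MCM genes were called lower. MCM10, a firing factor, passed nowhere and changed by between -0.19 and 0.21 in the full-length lines. In SKBR3 all 18 ring, loading and activation genes changed by less than the all-gene median, and 14 of them were called lower after median scaling. That scaling called 4171 of all 16494 genes lower. Quantile normalization, unlike median scaling, kept the SKBR3 count of the 40 genes called lower within 1.5 times of 11.

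PCNA, the sliding clamp, was called higher in the 3 full-length lines. It measured 312, 298 and 290.0 TPM in A375 batch 2 siControl and 393, 399 and 374 TPM in siGCDH (0.37 ± 0.042, adjusted p = 0.0006). In SKBR3 it measured 528, 569 and 519 TPM and 671, 681 and 645 TPM (0.30 ± 0.043, adjusted p = 0.00066). The SK-Hep1 rise was small, from 109.8, 99.8 and 104 TPM to 116, 117 and 114 TPM (0.14 ± 0.051, adjusted p = 0.042), and leaving out any 1 library but siControl replicate 1 ended the call. Median scaling ended it in SK-Hep1 and SKBR3. The clamp loader subunits split. RFC4 was higher in SKBR3, at 155, 163 and 157 TPM against 104, 114 and 114 TPM (0.51 ± 0.051, adjusted p = 0.00013), and in SK-Hep1 by 0.33, the latter lost after median scaling. RFC3 fell in SKBR3 from 109, 123 and 109 TPM to 88.7, 86.2 and 81.8 TPM (-0.40 ± 0.061, adjusted p = 0.00098). RFC5 fell in SKBR3 by 0.18, and RFC2 was called in no line. None of the 4 RFC genes was called in A375 batch 2, with changes from -0.17 to 0.086.

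The polymerase genes did not all move one way. POLA1 and PRIM1, the catalytic subunits of polymerase alpha and of primase that together lay down primers, were lower in all 3 full-length lines. PRIM1 in SK-Hep1 went from 16.4, 17.2 and 16.8 TPM to 6.72, 7.94 and 8.92 TPM (-1.01 ± 0.11, adjusted p = 0.00016), with no overlap. In SKBR3 PRIM1 fell from 58.9, 71.7 and 56.7 TPM to 40.5, 46.6 and 40.99 TPM (-0.53 ± 0.10, adjusted p = 0.0027) and in A375 batch 2 from 43.8, 39.3 and 40.3 TPM to 27.1, 32.3 and 34.5 TPM (-0.39 ± 0.10, adjusted p = 0.019). The A375 batch 2 call of PRIM1 was lost without siControl replicate 1. PRIM1 shares 362 exon bases with the same-strand gene model AC117378.1 and 123 with HSD17B6 on the opposite strand, so reads may not be separated. POLA1 fell in A375 batch 2 from 19.7, 19.6 and 20.6 TPM to 12.7, 12.5 and 13.9 TPM (-0.58 ± 0.077, adjusted p = 0.0013), in SK-Hep1 by 0.38 and in SKBR3 by 0.17. That last value lost its call without siControl replicate 2 or 3, or without siGCDH replicate 1 or 3.

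POLE, the leading-strand polymerase, moved the other way. It was 111, 109 and 120.5 TPM in SKBR3 siGCDH against 58.5, 65.6 and 77.6 TPM in siControl (0.75 ± 0.10, adjusted p = 0.00051). In SK-Hep1 it was 42.3, 38.8 and 40.6 TPM against 27.6, 24.6 and 25.4 TPM (0.63 ± 0.071, adjusted p = 0.0002), and in A375 batch 2 the groups overlapped (0.27 ± 0.12, adjusted p = 0.12). Its partner subunit POLE2 fell in A375 batch 2 alone, from 10.7, 13.5 and 14.1 TPM to 7.4, 9.65 and 9.28 TPM (-0.49 ± 0.14, adjusted p = 0.03). The POLE2 call was lost without siControl replicate 2 or 3, or without siGCDH replicate 1 or 3. POLD1, the catalytic subunit of polymerase delta, was higher in SKBR3 by 0.30, a call that median scaling ended. In A375 batch 1 it fell from 22.3, 24.7 and 29.3 TPM to 14.7, 15.6 and 13.9 TPM (-0.74 ± 0.18, adjusted p = 0.047), a call that leaving out any 1 library ended. FEN1 was higher in SK-Hep1, at 52.5, 59.2 and 51.2 TPM against 42.03, 39.7 and 37.4 TPM (0.44 ± 0.077, adjusted p = 0.0018). In SKBR3 FEN1 was called higher by 0.15 and, after median scaling, stood at -0.092 without a call (adjusted p = 0.089). Its SKBR3 call was lost without siControl replicate 2 or siGCDH replicate 1 or 3.

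TYMS, which makes thymidylate, was higher in all 3 full-length lines. It measured 118, 102 and 102 TPM in SK-Hep1 siControl and 179, 167 and 170.1 TPM in siGCDH (0.68 ± 0.067, adjusted p = 0.0001). In SKBR3 it measured 239, 219.7 and 224 TPM and 343, 346 and 347 TPM (0.60 ± 0.040, adjusted p = 2.2e-05), and in A375 batch 2 277, 284 and 283 TPM and 319, 317 and 332 TPM (0.20 ± 0.034, adjusted p = 0.0043). The groups did not overlap in any of the 3 lines. TYMS shares 967 exon bases with ENOSF1 on the opposite strand, and with the strand setting not given in the sources used here, reads of the pair may not be separated. TK1, the thymidine salvage kinase, was higher in A375 batch 2 by 0.25 (adjusted p = 0.02), a call lost without siControl replicate 1 or 3, or without siGCDH replicate 3. It was not called elsewhere, except lower in SKBR3 after median scaling (-0.19).

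**Figure D4:**
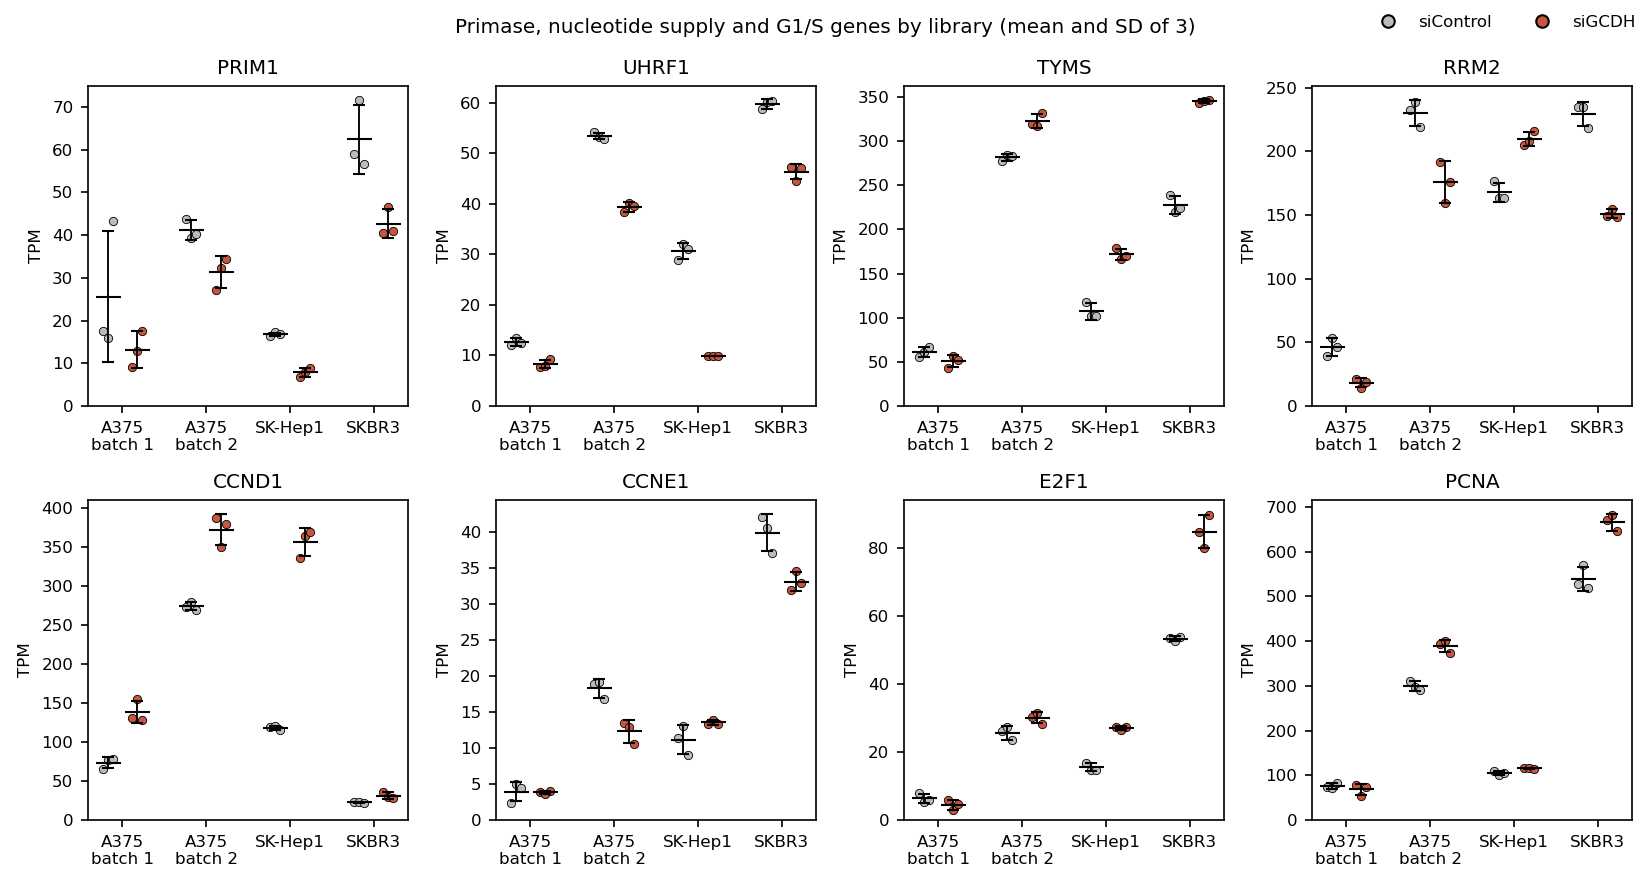
TPM of 8 genes in all 24 libraries (points), with the mean and SD of each group of 3. UHRF1 falls furthest in SK-Hep1, RRM2 moves up in SK-Hep1 and down in the other lines, and CCND1 rises furthest in SK-Hep1.

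RRM1 and RRM2 encode the large and small subunits of ribonucleotide reductase, which makes deoxynucleotides. RRM2 fell in SKBR3 from 235, 235 and 218 TPM to 149, 155 and 148 TPM (-0.60 ± 0.043, adjusted p = 3.2e-05) and in A375 batch 2 from 233, 238 and 219 TPM to 192, 159 and 176 TPM (-0.39 ± 0.071, adjusted p = 0.005). In SK-Hep1 it rose, from 177, 163 and 163 TPM to 205, 208 and 216 TPM (0.32 ± 0.049, adjusted p = 0.00091), and the call held after median scaling (0.20). In A375 batch 1 RRM2 had the largest fall of the 39 genes tested, from 39.5, 53.4 and 46.6 TPM to 21.4, 14.3 and 19 TPM (-1.31 ± 0.21, adjusted p = 0.013), lost without siControl replicate 2 or 3. Of 9 pseudogene rows of the 40 genes, the only one to reach 1 TPM in any library was RRM2P3, with a highest value of 1.48 TPM. RRM1 fell in A375 batch 2 from 81.5, 82.4 and 78.4 TPM to 66.9, 64.9 and 68.1 TPM (-0.27 ± 0.048, adjusted p = 0.0042) and was higher in SK-Hep1 by 0.17 (adjusted p = 0.023), the latter lost after median scaling and with replicate 2 or 3 of either group left out. RRM2 shares 1077 exon bases with a same-strand gene model, AC007240.1, so their reads may be split.

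UHRF1 brings the maintenance DNA methyltransferase to newly copied DNA. In SK-Hep1 it fell from 28.9, 32.1 and 30.96 TPM to 9.96, 9.89 and 9.91 TPM (-1.54 ± 0.074, adjusted p = 3.6e-06), the largest fall of any of the 40 genes in a full-length line. The 3 siGCDH libraries were nearly equal, between 9.89 and 9.96 TPM. UHRF1 fell in A375 batch 2 from 54.2, 53.2 and 52.9 TPM to 38.3, 40.1 and 39.6 TPM (-0.43 ± 0.052, adjusted p = 0.00081) and in SKBR3 from 58.6, 60.04 and 60.4 TPM to 47.3, 44.6 and 47.1 TPM (-0.36 ± 0.050, adjusted p = 0.00064). In batch 1 it was 11.99, 13.4 and 12.4 TPM and 7.74, 7.82 and 9.21 TPM, without overlap and with an adjusted p of 0.12.

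At the G1/S switch, cyclin D1 and cyclin E1 messages moved in opposite directions in A375 batch 2 and, before median scaling, in SKBR3. CCND1 in SK-Hep1 rose from 119, 121 and 115 TPM to 336, 364 and 369 TPM (1.58 ± 0.049, adjusted p = 7.4e-07), within the range of A375 batch 2 siGCDH for 2 of the 3 libraries. In A375 batch 2 it rose from 273, 279 and 269 TPM to 387, 349.7 and 379 TPM (0.44 ± 0.045, adjusted p = 0.00042). In A375 batch 1 it was the one gene of the set called higher, at 131, 155 and 129 TPM against 65.6, 76.8 and 78.5 TPM (0.90 ± 0.13, adjusted p = 0.011). In SKBR3 CCND1 rose from 23.4, 22.8 and 21.7 TPM to 36.4, 29.3 and 28.2 TPM (0.44 ± 0.10, adjusted p = 0.0069), a call that median and quantile scaling ended. CCNE1, a cyclin partner of CDK2, fell in A375 batch 2 from 18.9, 19.2 and 16.8 TPM to 13.4, 12.97 and 10.5 TPM (-0.54 ± 0.11, adjusted p = 0.0084) and in SKBR3 from 42.1, 40.6 and 37.2 TPM to 31.9, 34.6 and 32.9 TPM (-0.26 ± 0.068, adjusted p = 0.012). In SK-Hep1 it changed by 0.27 ± 0.13 (adjusted p = 0.11). CCNE2 fell in SKBR3 by 0.27 and was not called elsewhere. That CCNE2 call was lost without siControl replicate 2 or 3, or without siGCDH replicate 1 or 3. CCNE2 shares 1629 exon bases with INTS8 on the opposite strand, so reads of the pair may not be separated.

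E2F1, the activating E2F factor, was higher in SKBR3, at 84.5, 79.9 and 89.6 TPM against 53.3, 52.5 and 53.9 TPM (0.66 ± 0.055, adjusted p = 5.9e-05). In SK-Hep1 it was 27.3, 26.3 and 27.3 TPM against 16.8, 14.8 and 14.7 TPM (0.77 ± 0.078, adjusted p = 0.00012), and both calls held after median scaling. E2F1 in A375 batch 2 was 30.2, 31.5 and 28.3 TPM against 26.04, 27.3 and 23.4 TPM, without overlap and with an adjusted p of 0.067. E2F2 was called higher in SKBR3 alone (0.29 ± 0.094, adjusted p = 0.028), and the call was lost after median scaling, or with siControl replicate 1 or 2, or siGCDH replicate 1 or 3, left out. CDK2, the S phase kinase, was higher in A375 batch 2 by 0.25 and in SKBR3 by 0.37. The first call was lost without siControl replicate 1 or siGCDH replicate 1, and the second after median scaling.

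The difference of the siGCDH effect between lines was tested directly. A375 batch 2 minus SK-Hep1 was called higher for 7 genes and lower for 11 (17.4% and 28.8% of all genes tested). A375 batch 2 minus SKBR3 was higher for 2 and lower for 13 (14.5% and 36.8%). SK-Hep1 minus SKBR3 was higher for 7 and lower for 9 (14.5% and 25%). After median scaling the counts were 9 and 9, 13 and 5, and 12 and 6. Over all genes tested they were then 3326 and 3608 of 15548, 3739 and 4237 of 16820, and 3362 and 3196 of 16480. The 3 comparisons share libraries.

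**Figure D5:**
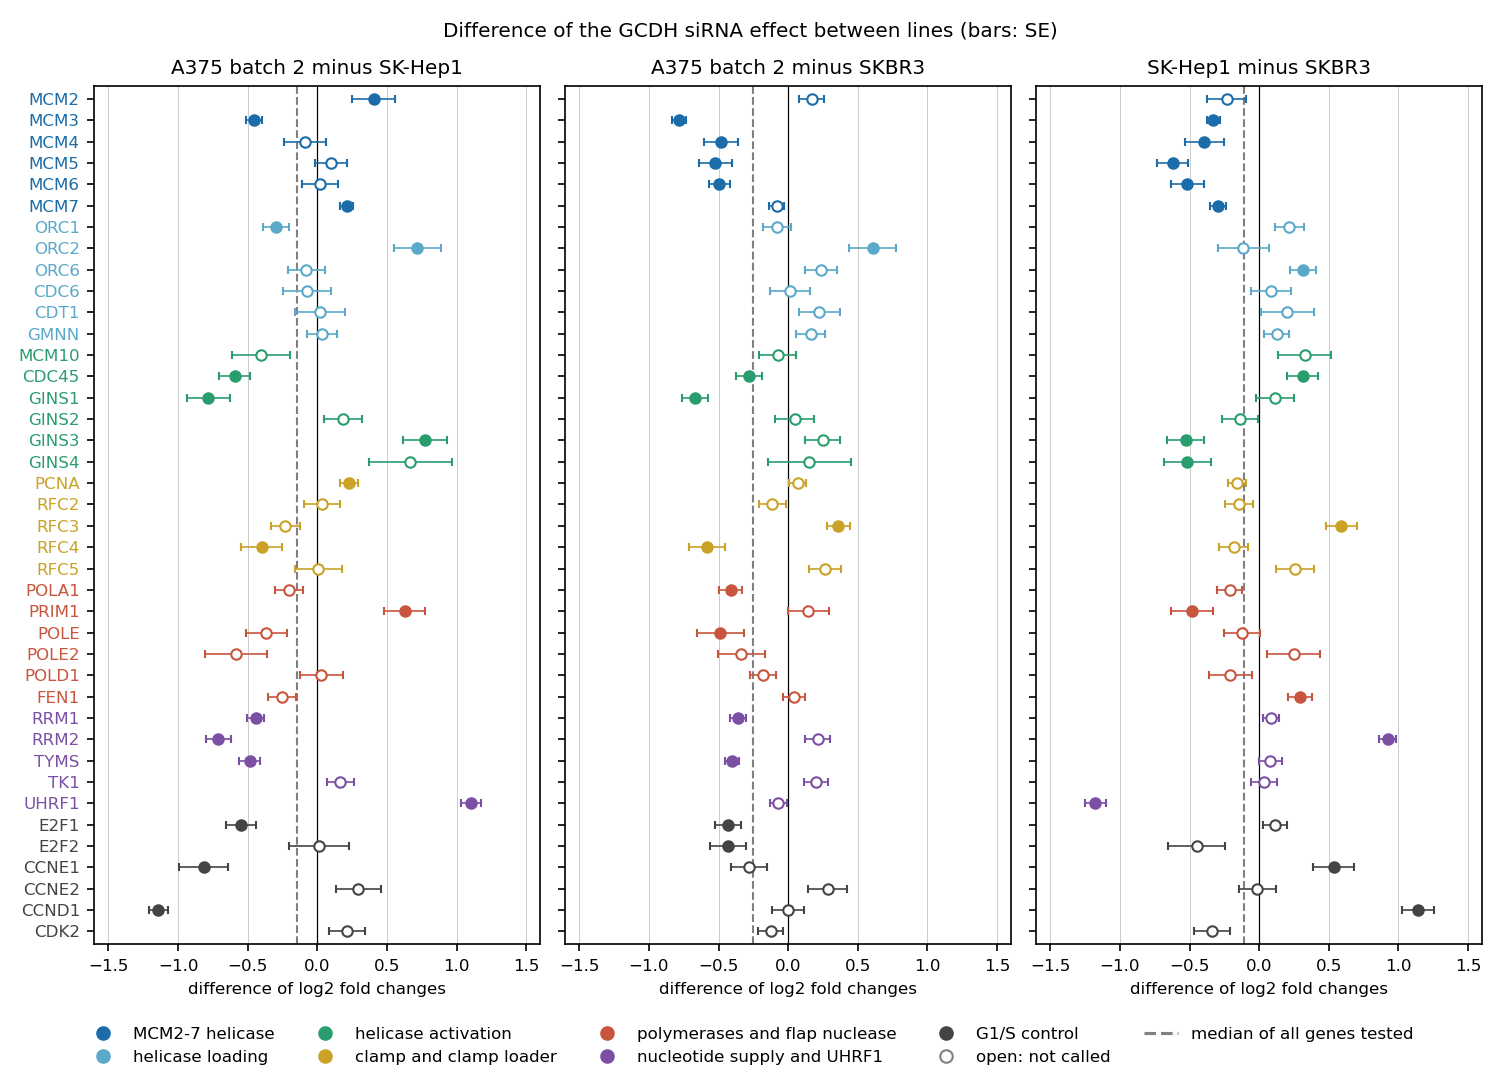
Difference of the log2 fold changes between lines for the 40 genes (bars show the SE). Filled points passed the test, the dashed line is the median of all genes tested, and UHRF1 and CCND1 lie farthest from 0 in both panels that include SK-Hep1.

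UHRF1 and CCND1 had the largest differences between SK-Hep1 and each of the other lines. UHRF1 fell further there than in A375 batch 2 (difference 1.1 ± 0.074, adjusted p = 6.1e-07) and than in SKBR3 (-1.18 ± 0.074, adjusted p = 1.2e-06). CCND1 rose further in SK-Hep1 than in A375 batch 2 (-1.14 ± 0.066, adjusted p = 2e-07) and than in SKBR3 (1.14 ± 0.12, adjusted p = 3.1e-05). RRM2 also differed, by -0.71 ± 0.090 (adjusted p = 7e-05) and 0.92 ± 0.062 (adjusted p = 1.9e-06). SK-Hep1 further differed from both other lines in MCM7, GINS3 and PRIM1, with the lower change, and in CDC45 and CCNE1, with the higher. After median scaling the PRIM1 difference from SKBR3 was no longer called. A375 batch 2 differed from both other lines in MCM3, CDC45, GINS1, RFC4, RRM1, TYMS and E2F1, each with the lower change in A375, and in ORC2, with the higher. After median scaling the RFC4 difference from SK-Hep1 and those of CDC45, RRM1 and E2F1 from SKBR3 were no longer called. For GINS1 these differences were -0.78 ± 0.15 (adjusted p = 0.0015) from SK-Hep1 and -0.67 ± 0.093 (adjusted p = 0.00014) from SKBR3. For MCM3 they were -0.45 ± 0.060 (adjusted p = 9.4e-05) and -0.79 ± 0.051 (adjusted p = 5.1e-07). SKBR3 differed from both other lines in MCM3, MCM4, MCM5 and MCM6, by between -0.79 and -0.33. After median scaling the MCM4 differences were no longer called, nor was that of MCM5 from A375 batch 2. In RFC3 SKBR3 also differed from both, by 0.36 and 0.59, with the lower value in SKBR3.

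Between the A375 batches, 27 of the 39 genes tested in both had values of the same sign (69.2%), against 63.3% of the 11919 genes tested in both. In batch 1, 26 of the 39 were negative, as were 65.6% of all genes. With the chromosome 21 rows removed from batch 1, 17 were negative and 28 of 39 had the same sign. The shares over all genes were not counted with those rows removed. Of the 13 genes called lower in batch 2, 12 had negative values in batch 1, and of the 6 called higher, 3 had positive values there. The same counts were not made over all genes called in batch 2. All genes tested in batch 1 had a median log2 change of -0.20. The difference of effect, batch 2 minus batch 1, was called higher for 2 genes and lower for 0 by limma (4.78% and 0.447% of all genes tested). After median scaling it was called for 0 and 1, and for 87 and 95 of all 14764 genes. At an unadjusted p under 0.05 in limma the difference was higher for 8 and lower for 2. All genes were not counted at that threshold, and their median difference was 0.19. The 2 genes called higher were RRM2 (0.92 ± 0.21, adjusted p = 0.03) and POLD1 (0.86 ± 0.16, adjusted p = 0.015). With the chromosome 21 rows removed, 1 gene was called lower in batch 1, as were 219 of all 13665 genes tested. In SKBR3 the mitochondrially encoded share was 1.99% to 2.12% in siControl and 4.787% to 4.999% in siGCDH, and the number of genes at 1 TPM or more was 15140 to 15181 and 17112 to 17251. Their part in the SKBR3 values was not tested.

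Other genes of the same pathways were counted from 8 further lists. Of 13 other licensing and firing genes, 1 was called higher and 4 lower in A375 batch 2, 4 and 4 in SK-Hep1, and 6 and 3 in SKBR3 (4 and 6 after median scaling). Of all genes tested, 17.9% were called higher and 15.7% lower in A375 batch 2, 37.3% and 18.2% in SK-Hep1, and 47.3% and 14.7% in SKBR3. After median scaling it was 2680 and 2452 of 15185, 4200 and 3341 of 14557, and 5043 and 4171 of 16494. Of 26 other fork genes, the counts were 3 and 7, 10 and 5 (7 and 6), and 13 and 6 (2 and 9). SSRP1, a histone chaperone subunit, fell by 1.29 in SK-Hep1 and 0.86 in SKBR3, where TOP2A, the S and G2 phase topoisomerase, rose by 0.92 and 0.72. POLE3, a polymerase epsilon accessory subunit, fell by 0.89 in A375 batch 2. Of 15 other nucleotide supply genes, 3 were higher and 5 lower in A375 batch 2, 6 and 6 in SK-Hep1 (6 and 8), and 7 and 4 in SKBR3 (4 and 7). RRM2B, the p53-induced small subunit of ribonucleotide reductase, rose by 0.71 in A375 batch 2 and 1.05 in SK-Hep1. Of 11 chromatin copying and DNA methylation genes, 1 was higher and 5 lower in A375 batch 2, 3 and 2 in SK-Hep1 (3 and 3), and 5 and 3 in SKBR3 (3 and 4). DTL, which targets CDT1 for destruction, fell by 0.90 in A375 batch 2. Of 18 replication checkpoint genes, 2 were higher and 4 lower, 8 and 2, and 10 and 5 (7 and 7 after median scaling).

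Of 23 other G1/S genes, 8 were higher and 4 lower in A375 batch 2, 13 and 6 in SK-Hep1 (9 and 6), and 9 and 8 in SKBR3 (6 and 10). Over all genes tested, 17.9%, 37.3% and 47.3% were called higher in these lines and 15.7%, 18.2% and 14.7% lower. CDK4, the cyclin D partner, fell in A375 batch 2 from 391, 353 and 364 TPM to 189, 167 and 201 TPM (-0.99 ± 0.072, adjusted p = 8.1e-05) while CCND1 rose, and CDK4 fell by 1.47 in batch 1. CDC25A, a CDK2-activating phosphatase, rose by 1.5 in SK-Hep1. In SKBR3 CDK6 fell by 1.12 and the repressor E2F7 rose by 1.14. CDKN1A, the p21 inhibitor of CDK2, rose in every line and batch, by 1.06, 1.58, 1.33 and 0.68 in A375 batch 1, batch 2, SK-Hep1 and SKBR3. Of 18 mitosis genes, 2 were higher and 13 lower in A375 batch 2 (2 and 14), 12 and 1 in SK-Hep1 (11 and 1), and 11 and 4 in SKBR3 (7 and 4). Of 7 CDK inhibitor genes, 3 were higher and 1 lower in A375 batch 2 (2 and 1), all 5 tested higher in SK-Hep1, and 4 and 1 in SKBR3 (3 and 2). CDKN1C, the p57 inhibitor, fell by 1.71 and 1.86 in A375 batch 1 and 2. In batch 1 at most 1 gene of any list was called higher and at most 3 lower.

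The 3′ UTRs that GENCODE 29 annotates were scanned for the heptamers ACTGAGA and CTGAGAA. An earlier search of these same data had singled them out, so gaps between the medians below are no independent evidence. Either was found in 4 of the 40 genes (10%), namely CDC6, GINS2, GINS3 and GINS4, against 26.2% of 12160 genes tested in A375 batch 2. The median log2 change of the 4 was -0.12 in A375 batch 2, -0.47 in SK-Hep1, -0.18 in SKBR3 and 0.018 in A375 batch 1. That of the other members tested was -0.056, 0.088, 0.033 and -0.26. Over all genes with a searched 3′ UTR, the medians with and without either heptamer were -0.094 and 0.039 in A375 batch 2, 0.155 and 0.154 in SK-Hep1, 0.215 and 0.225 in SKBR3, and -0.24 and -0.20 in batch 1.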

How the data were processed

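RNA of 24 libraries was measured. The authors deposited 1 table of TPM values with a column per library, made with cutadapt 2.3, STAR 2.7.0d, RSEM 1.3.1 and hg38, per the submitters' processing notes. RSEM shares reads among similar transcripts. The annotation version and whether strand was used were not given in the sources used here. Since TPM holds no totals of reads, library depth is unknown, and counting intervals are not given. Groups and replicate numbers came from the sample titles.

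Values were taken as log2(TPM + 1), and a fold change on this scale understates changes of low genes. Each comparison used the libraries of its groups in limma 3.58.1 (eBayes with trend, R 4.3.3), for genes whose mean reached 1 TPM. Benjamini-Hochberg adjustment ran over all genes of a fit, and genes were called under 0.05. Changes in the text are log2 differences ± SE. Differences of effect were interactions in fits of 12 libraries. Same-numbered libraries correlated by between -0.028 and 0.057, so no replicate block was used.

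The 40 genes and the 8 other lists were chosen with earlier results of these data known. Beside the 40 genes, the text names GCDH, CDKN1A, pseudogenes reaching 1 TPM, and called genes with the largest rise or fall of a list, not all of which are reported. Alternatives were pseudocounts of 0.1 and 5, no filter or 5 TPM, quantile and median scaling, no trend, a replicate block, a joint fit of 24 libraries, removal of chromosome 21 repeat rows (21 rows) in batch 1 comparisons, and leaving out each library. The summed MCM level with those rows removed was added after seeing the data. Coordinates are those of GENCODE 29 or, for promoters, RefSeq. Python 3.11.15 with pandas 2.3.3 and matplotlib 3.10.9 was used.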

Additional observations from a re-analysis of the deposited data

Results flagged for a closer look

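Each gene below was picked because the siGCDH effect differed between 2 lines, or between the A375 batches, in a test of that difference (limma interaction, adjusted p under 0.05 over all genes). Values are differences of log2 fold changes, first line minus second.

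Between A375 batch 2 and SK-Hep1 the helicase genes MCM2, MCM3 and MCM7 differed by 0.40, -0.45 and 0.21. The loading genes ORC1 and ORC2 differed by -0.30 and 0.72. For the activation genes CDC45, GINS1 and GINS3 the values were -0.59, -0.78 and 0.78. PCNA differed by 0.23, RFC4 by -0.40 and PRIM1 by 0.63. The nucleotide supply genes RRM1, RRM2 and TYMS differed by -0.44, -0.71 and -0.49, and UHRF1 by 1.1. Of the G1/S genes, E2F1, CCNE1 and CCND1 differed by -0.55, -0.81 and -1.14.

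Between A375 batch 2 and SKBR3 the ring genes MCM3, MCM4, MCM5 and MCM6 differed by -0.79, -0.48, -0.52 and -0.50. ORC2 differed by 0.61, CDC45 by -0.28 and GINS1 by -0.67. The clamp loader genes RFC3 and RFC4 went opposite ways, at 0.36 and -0.58. POLA1 and POLE differed by -0.41 and -0.49, RRM1 by -0.36 and TYMS by -0.40. E2F1 and E2F2 differed by -0.43 and -0.43.

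Between SK-Hep1 and SKBR3 the ring genes MCM3 to MCM7 differed by -0.33, -0.39, -0.62, -0.52 and -0.29. ORC6 differed by 0.31 and CDC45 by 0.31, whereas GINS3 and GINS4 were at -0.53 and -0.52. RFC3 differed by 0.59, PRIM1 by -0.48 and FEN1 by 0.29. RRM2 and UHRF1 were far apart and opposite, at 0.92 and -1.18. CCNE1 and CCND1 differed by 0.53 and 1.14.

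Between the A375 batches, POLD1 differed by 0.86 and RRM2 by 0.92, batch 2 minus batch 1.

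After median scaling 15 of these differences were no longer called. They were ORC1 and RFC4 between A375 batch 2 and SK-Hep1, and MCM4, MCM5, CDC45, POLA1, POLE, RRM1, E2F1 and E2F2 between A375 batch 2 and SKBR3. Between SK-Hep1 and SKBR3 they were MCM4, GINS4 and PRIM1, and between the A375 batches POLD1 and RRM2.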

How the results depend on the processing

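Counts of the 40 genes called higher and lower varied with scaling, the trend and the joint fit, and the cause was not tested. In A375 batch 1 (1 higher, 3 lower), no trend gave 0 and 0, the joint fit of 24 libraries 4 and 17, and quantile normalization, median scaling and removal of the chromosome 21 rows each 1 lower. Over all 12868 genes tested, no trend called 14 higher and 71 lower, and the joint fit 1408 and 4150. Quantile normalization called 264 and median scaling 294 of them lower, and removal of the rows 219 of 13665. Leaving out 1 library there gave 0 to 2 lower, and 244 to 495 over all genes tested. In A375 batch 2 (6 higher), no trend gave 3 and the joint fit 2, against 2346 and 1398 of all 15185 genes. In SK-Hep1 (12 higher), quantile normalization, median scaling and the joint fit each gave 7, against 3948, 4200 and 3949 of all 14557 genes. In SKBR3 (10 higher, 11 lower), median scaling gave 4 and 26, and the joint fit 4 lower. Of all 16494 genes, median scaling called 5043 higher and 4171 lower there, and the joint fit 1718 lower.

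For the differences between lines, the joint fit gave 3 higher and 7 lower (A375 batch 2 minus SK-Hep1), 0 and 5 (minus SKBR3), and 3 and 2 (SK-Hep1 minus SKBR3). Over all genes these were 1677 and 2638 of 15548, 1494 and 4051 of 16820, and 1195 and 2464 of 16480. For A375 batch 2 minus SKBR3, quantile normalization gave 6 higher, median scaling 13 and 5, and leaving out 1 library 2 to 7 higher. Over all genes these were 3858 of 16820, 3739 and 4237 of 16820, and 2244 to 2420. For SK-Hep1 minus SKBR3, quantile normalization and median scaling gave 4 and 12 higher, against 3203 and 3362 of all 16480 genes. For batch 2 minus batch 1 (2 higher, 0 lower), no filter and no trend gave 1 higher, against 519 of 30231 and 194 of 14764 over all genes. Quantile normalization, median scaling and removal of the chromosome 21 rows gave 0 higher and 1 lower, the filter of 5 TPM 1 lower, and the joint fit 6 and 2. Over all genes the first 2 gave 100 and 122, and 87 and 95, of 14764, and removal of the rows 73 and 113 of 15062. The filter of 5 TPM gave 70 lower of 10333, and the joint fit 2093 and 383 of 14764. Leaving out 1 library gave 0 to 4 higher and 0 to 2 lower, and over all genes 234 to 1065 higher and 23 to 125 lower. In siControl levels, leaving out 1 library gave 2 to 4 lower for A375 batch 2 against SK-Hep1 and 1 to 2 higher for SK-Hep1 against SKBR3, where no trend gave 1 higher. Over all genes these were 4122 to 4324 lower, 4203 to 4383 higher and, with no trend, 4391 higher of 15477.

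With the replicate block, 0 genes were lower in batch 1, 0 higher in batch 2 minus batch 1 and 1 higher in SK-Hep1 against SKBR3, and the other counts stayed within 1.5 times. Over all genes the first 3 counts were 314 of 12868, 218 of 14764 and 4397 of 15477. The block used numbers only, since same-numbered libraries did not deviate together and in no line did every library correlate best with its own number.

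Signs turned in SKBR3 under median scaling for MCM4 (-0.21), MCM7 (-0.16), ORC6 (-0.20), GMNN (-0.17), FEN1 (-0.092), RRM1 (-0.15) and TK1 (-0.19), and under quantile normalization for MCM3 (0.098) and E2F2 (-0.038). In A375 batch 2 against SK-Hep1 siControl, RRM1 was at -0.0015 after median scaling. Of 8400 single-gene values under alternatives, 7848 kept their direction and side of the threshold or were uncalled in both (263 of these with the other sign), 384 lost and 158 gained a call, and 10 turned. The joint fit was not run for siControl levels. Depth is unknown, so precision at low TPM could not be judged from counts.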

Other observations

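CDKN2A and CCND2 were most abundant in SKBR3 control cells, the line with the lowest CCND1. CDKN2A, whose products include the p16 inhibitor of CDK4 and CDK6, measured 370.3 ± 11.2 TPM (SD, n = 3) in SKBR3 siControl and 5.62 ± 1.58 TPM in A375 batch 2, and was listed at 0 in all SK-Hep1 libraries. CCND2, cyclin D2, measured 11.04 ± 0.921 TPM in SKBR3 and at most 0.26 TPM in any SK-Hep1 library, where CCND1 was at 118 ± 2.698 TPM in siControl. RB1, the retinoblastoma gene, measured 18.2 ± 0.941 TPM in SKBR3 siControl and 38.9 ± 2.15 TPM in siGCDH, and 19.1 ± 2.33 and 32.8 ± 2.24 TPM in SK-Hep1, without overlap in either line. In A375 batch 2 RB1 was at 52.3 ± 3.19 and 57.6 ± 3.31 TPM, and the groups overlapped. These genes were singled out after their values were seen.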
